A study of Mus musculus with 6 samples.

Results

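Neutrophils carry preformed proteins in granules that are filled in succession as the cell matures. Primary granules form first, in promyelocytes, secondary (specific) granules in myelocytes and metamyelocytes, and tertiary (gelatinase) granules last, so that a protein's granule follows from when its gene is on. The genes of secondary granules depend on C/EBP-family transcription factors, in particular C/EBPε, and are a standard measure of how far neutrophil maturation has gone in normal and leukaemic marrow. Described here are 10 such genes of 30406 in all 6 count matrices of the series, taken as a fixed list of symbols: Camp, Ngp, Ltf, Lcn2, Mmp8, Mmp9, Chil3, Fcnb, Orm1 and Itgb2l. All 10 symbols were found in every matrix.

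The data are droplet single-cell RNA libraries made from the marrow of mice with acute myeloid leukaemia, 1 library per group. In 4 libraries the leukaemia was the MLL-AF9 (MA9) model, with Shp-1, the phosphatase encoded by Ptpn6, either f/f or Δ/Δ, under PBS or AraC+Dox. In 2 libraries it was the Hoxa9-Meis1 (HM) model, Shp-1 f/f by title, under PBS or AraC+Dox. AraC is the nucleoside drug cytarabine, and Dox is given by the labels in this short form only. The labels give neither the Cre that made the deletion nor the age, sex or number of animals per library. They say that the leukaemias came from mouse embryonic stem cells given MLL-AF9 or Hoxa9-Meis1, and describe no sort of the flushed marrow for leukaemic cells, so leukaemic and normal neutrophil-line cells were not told apart.

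After filtering, 2726 to 9204 cells per library were kept, with 14871153 to 96645184 UMIs (unique molecular identifiers, 1 per captured transcript) and a median of 3991.5 to 9876 UMIs per cell. The HM PBS library stands apart: 74.7% of its barcodes had more than 10% mitochondrial UMIs and were left out, against 1.83% to 8.33% elsewhere. Ptpn6, the deleted gene, went against 2 labels. It was at 186 CPM (UMIs per 1000000 UMIs) in the library with the label MA9 f/f PBS, 172 CPM in the one given as MA9 Δ/Δ PBS, 57.7 CPM in the one given as MA9 f/f AraC+Dox and 43.5 CPM in the one given as MA9 Δ/Δ AraC+Dox. By this gene the MA9 libraries with PBS labels stand together, as do the MA9 libraries with AraC+Dox labels, and the first letters of the codes under which the submitters deposited these 4 matrices group them in the same way. In the HM libraries, Shp-1 f/f by title, Ptpn6 was at 135 CPM under PBS and 113 CPM under AraC+Dox. The labels do not say whether the 3′ tags lie in the deleted part, so Ptpn6 alone does not settle the genotype. Groups are therefore named by their labels only, and every direction drawn between MA9 libraries rests on those labels: were the labels Δ/Δ PBS and f/f AraC+Dox exchanged, the pairs below that compare Δ/Δ with f/f would compare AraC+Dox with PBS. Likewise, the MA9 pairs that compare AraC+Dox with PBS would compare Δ/Δ with f/f. With 1 library per group no group has replicates and no test between libraries was run. A fit that adds up background and treatment over all 6 libraries would leave residual degrees of freedom but was not run, and its terms would rest on the doubted labels. Intervals given for a level or ratio are exact 95% intervals for counting error only. Pairs of MA9 libraries shared 21 to 34 cell barcodes, the HM libraries shared 37, and libraries of different models, whose barcodes differ in length (16 and 17 bases), could share none.

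Of the 10 genes, 4 lie on chromosome 9 and 3 on chromosome 2 (GRCm38, GENCODE vM21). Camp (ENSMUSG00000038357) lies at chr9:109847379-109849617 on the minus strand. Ngp (ENSMUSG00000032484) lies at chr9:110419747-110423012 and Ltf (ENSMUSG00000032496) at chr9:111019271-111042767, both on the plus strand, so that the 3 span 1195 kb. Mmp8 (ENSMUSG00000005800) lies far from them at chr9:7558456-7568485. Lcn2 (chr2:32384633-32388252), Fcnb (chr2:28076378-28084885) and Mmp9 (chr2:164940780-164955850) share chromosome 2. Chil3 lies at chr3:106147554-106167564, Orm1 at chr4:63344560-63348163 and Itgb2l at chr16:96422288-96443619. All are protein coding, and all 10 Ensembl identifiers in the matrices matched this annotation.

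RefSeq promoter windows (GRCm38.p6) were held for 8 of the 10, all but Mmp9 and Orm1. Shown are the bases upstream of both the RefSeq and the GENCODE transcript start for 5 genes that took different courses in the cells described below: Ngp, which fell between early and late neutrophil-line cells, Ltf, which did not pass the test, Mmp8, which rose most, and Chil3 and Fcnb, which fell most. Capitals mark 2 motifs searched on both strands, the C/EBP-type TTNNGCAA and the PU.1/ETS-type GAGGAA, where N is any base.
Ngp, chr9:110419558-110419746, plus strand: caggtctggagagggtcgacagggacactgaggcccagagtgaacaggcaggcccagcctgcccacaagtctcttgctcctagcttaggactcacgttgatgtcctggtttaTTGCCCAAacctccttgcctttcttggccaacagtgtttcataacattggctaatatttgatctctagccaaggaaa
Ltf, chr9:111019042-111019270, plus strand: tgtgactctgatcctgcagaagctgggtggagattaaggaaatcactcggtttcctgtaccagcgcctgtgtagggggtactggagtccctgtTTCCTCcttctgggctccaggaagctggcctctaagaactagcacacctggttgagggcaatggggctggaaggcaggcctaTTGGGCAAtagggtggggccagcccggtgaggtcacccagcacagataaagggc
Mmp8, chr9:7558179-7558428, plus strand: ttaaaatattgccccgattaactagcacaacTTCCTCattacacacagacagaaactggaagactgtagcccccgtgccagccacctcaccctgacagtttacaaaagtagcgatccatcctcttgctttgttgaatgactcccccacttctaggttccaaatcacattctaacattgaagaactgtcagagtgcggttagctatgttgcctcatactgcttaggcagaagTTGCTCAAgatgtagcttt
Chil3, chr3:106167565-106167814, minus strand: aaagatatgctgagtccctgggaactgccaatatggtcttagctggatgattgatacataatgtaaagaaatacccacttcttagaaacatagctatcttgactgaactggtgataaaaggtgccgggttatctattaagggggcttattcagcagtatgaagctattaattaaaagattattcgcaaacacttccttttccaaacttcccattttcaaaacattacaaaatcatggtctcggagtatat
Fcnb, chr2:28084886-28085128, minus strand: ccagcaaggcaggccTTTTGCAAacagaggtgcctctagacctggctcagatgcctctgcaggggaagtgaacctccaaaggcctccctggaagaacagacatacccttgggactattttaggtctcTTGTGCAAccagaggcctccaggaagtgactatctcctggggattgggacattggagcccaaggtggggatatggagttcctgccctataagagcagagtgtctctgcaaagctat
Over the whole 250 bases before the RefSeq start, TTNNGCAA was found for 5 of the 8 members held (Ngp, Ltf, Lcn2, Mmp8 and Fcnb) and in 9.56% of all 32851 promoter windows of that length. Its matches began 138 and 11 bases before the RefSeq start in Ngp, 75 in Ltf, 216 in Lcn2, 19 in Mmp8, and 235 and 123 in Fcnb, the nearer Ngp match and that of Lcn2 being outside the bases shown. GAGGAA was found for 4 of the 8 (Ltf, Lcn2, Mmp8 and Itgb2l) and in 23.3% of all windows, and the TATA-type TATAAA for none of the 8 and in 12.4% of all. No match of the 3 motifs overlapped another in these windows. The windows of Camp and Chil3 hold neither of the first 2 motifs in these letters. These matches describe sequence and were not tested as binding sites.

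Across whole libraries the 10 genes together made up 3.45% of all UMIs in the library with the label MA9 f/f PBS, 0.319% in MA9 Δ/Δ PBS, 3.28% in MA9 f/f AraC+Dox, 0.327% in MA9 Δ/Δ AraC+Dox, 4.78% in HM PBS and 3.04% in HM AraC+Dox. The libraries labelled MA9 Δ/Δ thus lay about 10-fold below the other 4. Camp and Ngp alone gave 61.6% to 81.4% of these UMIs. The median cell held UMIs of 5 of the 10 genes in both libraries labelled MA9 f/f, of 0 and 1 in those labelled MA9 Δ/Δ PBS and MA9 Δ/Δ AraC+Dox, and of 6 and 7 in HM PBS and HM AraC+Dox.

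The secondary granule antimicrobial proteins were the most abundant. Camp, the cathelicidin precursor cleaved to an antimicrobial peptide, stood at 16638 CPM in the library with the label MA9 f/f PBS, 1171 in MA9 Δ/Δ PBS, 18654 in MA9 f/f AraC+Dox, 902 in MA9 Δ/Δ AraC+Dox, 21007 in HM PBS and 10142 in HM AraC+Dox. Among all genes it held rank 3 in both libraries labelled MA9 f/f, and ranks 138 and 156 in those labelled MA9 Δ/Δ PBS and MA9 Δ/Δ AraC+Dox. Ngp, a cystatin-like granule protein, stood in the same order at 9684, 793, 8035, 1185, 12795 and 10150 CPM. Both genes were lower in each library with the label MA9 Δ/Δ than in any other library.

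Among the iron-binding proteins, Ltf, which encodes lactoferrin, stood at 1080, 79.5, 510, 40.6, 3400 and 2146 CPM in the order MA9 f/f PBS, MA9 Δ/Δ PBS, MA9 f/f AraC+Dox, MA9 Δ/Δ AraC+Dox, HM PBS and HM AraC+Dox. Lcn2, a lipocalin that binds bacterial siderophores, stood at 2808, 468, 2035, 606, 6427 and 4900 CPM in that order. For both the HM libraries were the highest and the libraries labelled MA9 Δ/Δ the lowest.

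The matrix proteases marked the HM libraries most. Mmp8, the neutrophil collagenase, stood at 99.2, 18.0, 43.5, 11.8, 1228 and 896 CPM in the same order. Mmp9, the gelatinase of tertiary granules, stood at 226, 62.1, 91.7, 25.3, 947 and 587 CPM. In both genes even the higher MA9 library stayed well under the lower HM library.

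The lectins ran the other way between the libraries labelled MA9 f/f and the HM libraries. Chil3, a chitinase-like lectin, stood at 2730, 444, 2513, 236, 1506 and 1234 CPM, and Fcnb, ficolin B, which can start the lectin pathway of complement, at 1067, 136, 781, 247, 340 and 217 CPM. Both were highest in the libraries labelled MA9 f/f. In those labelled MA9 Δ/Δ, Chil3 lay below both HM libraries, and Fcnb did so under PBS only. The remaining members were scarce. Orm1, the acute-phase protein orosomucoid, stood at 20.7, 1.33, 31.7, 1.35, 67.8 and 51.2 CPM, and Itgb2l, an integrin beta 2-like subunit, at 121, 14.5, 87.4, 15.2, 92.0 and 80.3 CPM. The Orm1 levels of the libraries labelled MA9 Δ/Δ did not differ beyond counting error, with a log2 ratio of 0.02 (interval -0.35 to 0.39), and the same held for Itgb2l at 0.07 (-0.04 to 0.18). UMIs of the close relatives Orm2, Orm3 and Chil4 were at most 4 per library, so reads shared with these copies could still have been discarded or assigned to Orm1 and Chil3, which was not tested.

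**Figure D1:**
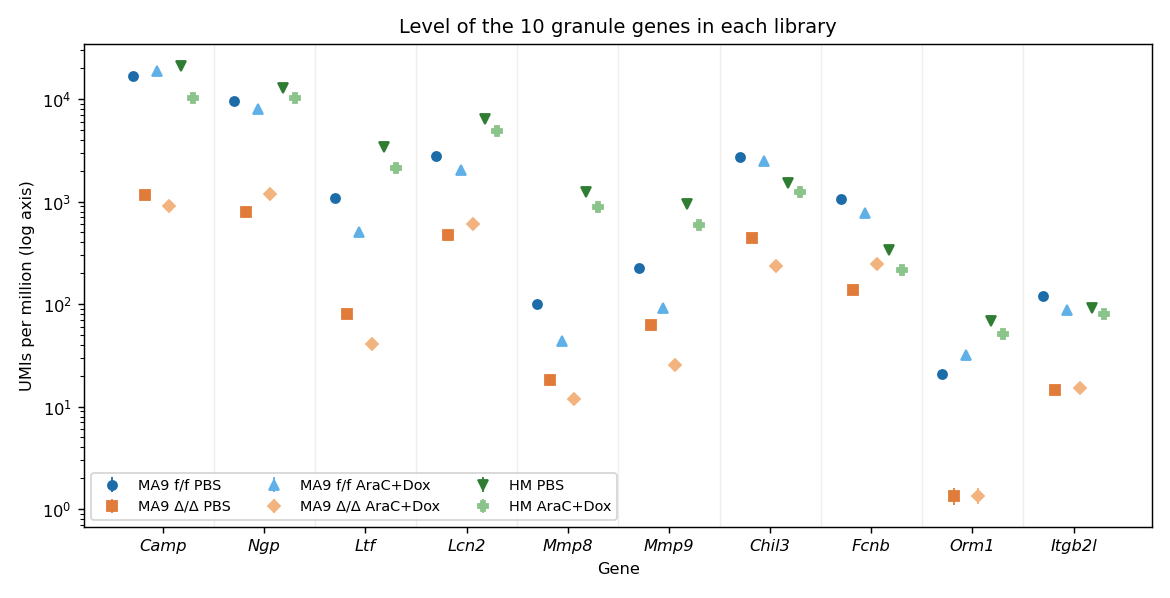
Level of each of the 10 genes in CPM (log axis) in each of the 6 libraries, with exact 95% counting intervals that are mostly smaller than the symbols. For every gene except Fcnb, whose level in HM AraC+Dox (217) lies below that in MA9 Δ/Δ AraC+Dox (247), the libraries labelled MA9 Δ/Δ are the lowest.

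To see which cells held these transcripts, cells were gated by marker genes that include none of the 10. The primary granule gate (Mpo, Elane, Prtn3 and others) stands for promyelocyte-like cells, the early neutrophil line gate (Cebpe, Ly6g, Gstm1 and others) for the stage after it, and the late neutrophil gate (Cxcr2, Il1b, Csf3r and others) for more mature cells. The gates follow from their markers, so marker levels describe them and test nothing. In the library with the label MA9 f/f PBS, Elane, the primary granule elastase, fell from 5185 CPM in the primary granule gate to 359 in the early and 37 in the late gate. The chemokine receptor Cxcr2 ran from 7.01 to 42.8 and 706 CPM over the same gates. Early gates differed between libraries in what they held of primary granule genes: Elane stood there at 55.0 CPM in HM PBS but at 2139 in the library with the label MA9 Δ/Δ AraC+Dox, whose 41 cells also had Mpo at 668 CPM.

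Early neutrophil-line cells were frequent in some libraries and rare in others. They made up 20.6% of kept cells (1695 cells) in the library with the label MA9 f/f PBS, 1.31% (120) in MA9 Δ/Δ PBS, 11.9% (1099) in MA9 f/f AraC+Dox, 0.452% (41) in MA9 Δ/Δ AraC+Dox, 7.48% (204) in HM PBS and 0.826% (38) in HM AraC+Dox. Late neutrophils made up 5.88%, 5.33%, 2.42%, 1.19%, 62.7% and 46.6% in the same order. Among kept cells the late gate was thus the largest class in both HM libraries, and the primary granule gate in each MA9 library (39.9% to 61.6%). In HM PBS the kept cells were only 21.9% of barcodes. In MA9 f/f PBS the early gate gave 47.8% of the members' UMIs from 17.9% of all UMIs, while in the libraries labelled MA9 Δ/Δ PBS and MA9 Δ/Δ AraC+Dox the primary granule gate gave 54.1% and 75.9% of them. In HM PBS and HM AraC+Dox the late gate gave 41.2% and 45.4%.

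**Figure D2:**
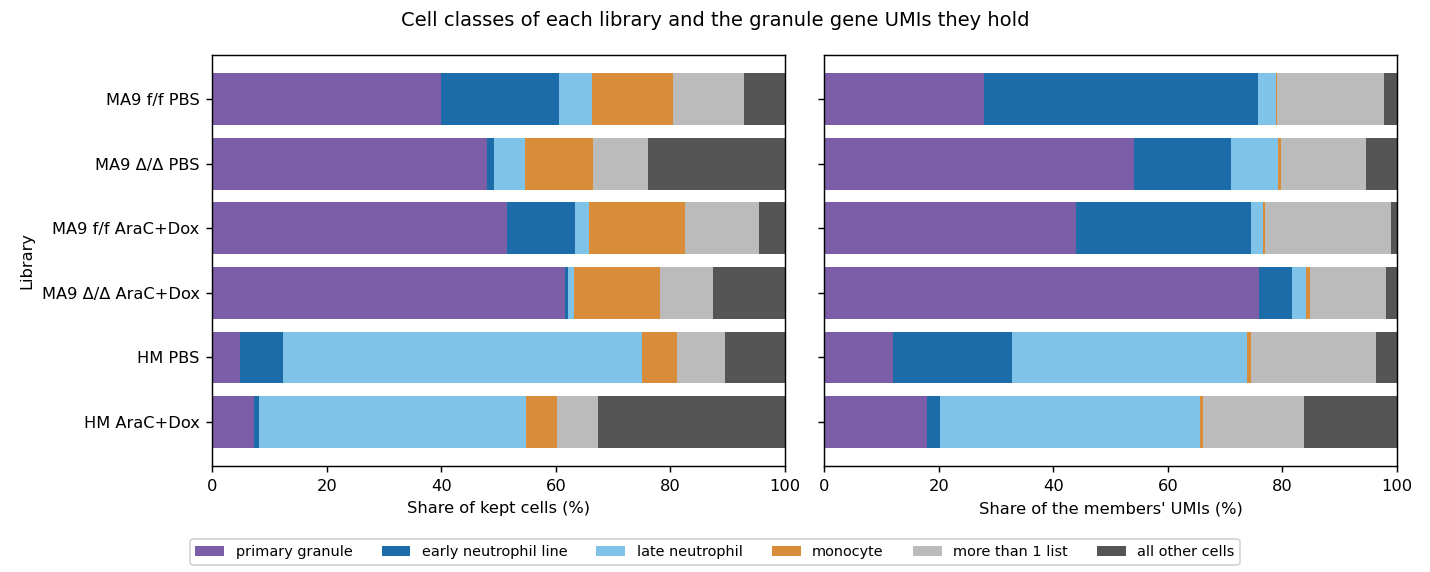
Share of kept cells (left) and of the UMIs of the 10 genes (right) in each marker-gated class, in percent, for each library. Early neutrophil-line cells are 20.6% of cells and hold 47.8% of the granule gene UMIs in MA9 f/f PBS, against 1.31% and 16.9% in the library with the label MA9 Δ/Δ PBS.

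Within the gates the genes took different courses. Camp rose from 9920 CPM in the primary granule gate to 42708 in the early and back to 13066 in the late gate of MA9 f/f PBS, and peaked in the early gate of every library (16684 to 55189 CPM). Mmp8 ran from 2.52 to 161 and 1858 CPM over those gates of MA9 f/f PBS, and Mmp9 from 22.4 to 592 and 2531, so that both were highest in the late gate, as in each of the 6 libraries. Fcnb was already at 1067 CPM in the primary granule gate of MA9 f/f PBS, reached 1739 in the early gate and fell to 246 in the late gate. In HM PBS it was highest in the primary granule gate, at 1073 CPM against 725 in the early gate. This was the 1 case of a member whose highest level lay outside the neutrophil-line gates when primary granule, early, late and monocyte gates were compared.

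**Figure D3:**
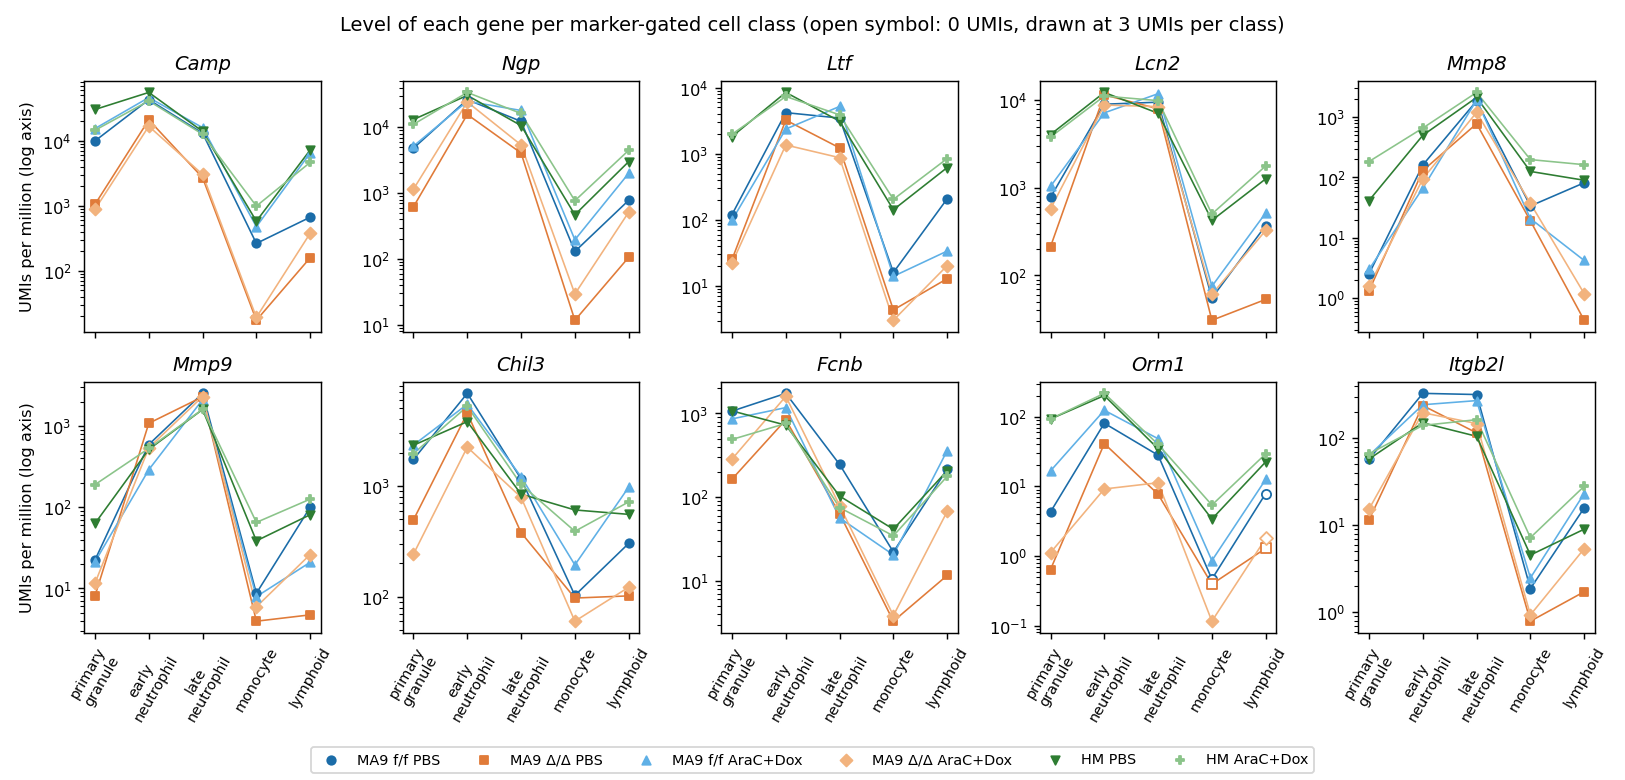
Level of each gene in CPM (log axis) in primary granule, early neutrophil line, late neutrophil, monocyte and lymphoid cells, 1 line per library, with open symbols where no UMI was seen. Camp peaks in the early gate (42708 in MA9 f/f PBS), Mmp8 and Mmp9 rise into the late gate (1858 and 2531), and Fcnb falls there (246).

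The step from early to late neutrophil-line cells was tested within libraries, on UMIs summed per library and gate with the library as a block, in the 4 libraries with at least 50 cells on both sides (MA9 f/f PBS, MA9 Δ/Δ PBS, MA9 f/f AraC+Dox and HM PBS). By edgeR's quasi-likelihood test with Benjamini-Hochberg adjustment over 7035 genes, 2 of the 10 genes rose and 5 fell, where 27.4% of all genes tested rose and 29.7% fell. The tertiary granule and collagenase genes rose. Mmp8 stood at 161, 130, 66.6 and 500 CPM in the early gates of these libraries and at 1858, 779, 1916 and 2120 in the late gates, with no overlap (log2 fold change 3.51 ± 0.48 SE, edgeR adjusted p = 5.6e-04, higher in 4 of 4 libraries). Mmp9 went from 621 ± 334 to 2140 ± 393 CPM (SD, n = 4 libraries), a log2 fold change of 2.17 ± 0.32 (edgeR adjusted p = 7.8e-04).

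The lectins fell most. Fcnb stood at 1739, 839, 1175 and 725 CPM in the early gates and 246, 63.4, 56.5 and 103 in the late gates, again without overlap (log2 fold change -3.13 ± 0.26, edgeR adjusted p = 7.1e-05). Chil3 went from 5150 ± 1300 to 898 ± 382 CPM (SD, n = 4; -2.35 ± 0.29, edgeR adjusted p = 3.2e-04). Both were lower in the late gate of each library. Camp went from 41300 ± 14600 to 11400 ± 5920 CPM (-1.78 ± 0.29, edgeR adjusted p = 9.8e-04), and Orm1 from 112 ± 69.3 to 29.8 ± 16.9 (-1.66 ± 0.26, edgeR adjusted p = 8.7e-04), each in 4 of 4 libraries.

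Ngp also fell, from 24500 ± 6330 to 11300 ± 5770 CPM (log2 fold change -1.01 ± 0.29, edgeR adjusted p = 0.0163, lower in 4 of 4 libraries). Its adjusted p ran from 9.7e-05 to 0.0972 over 9 alternatives, and the call was lost without the library with the label MA9 Δ/Δ PBS (-0.65) and without MA9 f/f PBS (-1.01). The iron-binding genes did not pass. Ltf differed by -0.28 ± 0.46 (edgeR adjusted p = 0.628) and was lower in the late gate of 3 of 4 libraries, while in MA9 f/f AraC+Dox it was higher, at 5177 against 2358 CPM. Without that library Ltf passed the test as lower in late cells (-0.86). Lcn2 differed by 0.12 ± 0.29 (edgeR adjusted p = 0.742), at 10000 ± 2360 CPM in early and 9160 ± 2100 in late cells, and Itgb2l by -0.08 ± 0.23 (edgeR adjusted p = 0.784). These misses do not show that the genes stayed level.

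Of the 34 other secondary and tertiary granule and secretory vesicle genes in a fixed list, 30 were tested and reached 20 CPM on either side. From early to late cells 19 rose and 1 fell, where 27.4% of all genes tested rose and 29.7% fell. Their median log2 fold change was 0.78 against -0.07 over all genes tested, which had no such limit, so the sets are unlike. Slc11a1, at 4.14 CPM in early and 50.2 in late cells, reached the limit only on its higher side. The largest were Retnlg, a resistin-like secreted protein (1370 to 16900 CPM, log2 fold change 4.52), the phagosomal metal transporter Slc11a1 (4.37), the formyl peptide receptor Fpr1 (3.56) and the metalloprotease Adam8 (2.95). Among regulators that were not gate markers, Cebpb rose from 271 to 806 CPM (1.80 ± 0.15, edgeR adjusted p = 7.1e-05) and Myb, a progenitor factor, fell from 131 to 33.0 CPM (-1.59 ± 0.26, edgeR adjusted p = 0.00118). In all, 4 of the 7 regulators tested rose and 1 fell.

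Early neutrophil-line cells were then split into cycling and non-cycling cells by 8 cell cycle genes, in the 3 libraries with at least 50 of each (MA9 f/f PBS, MA9 f/f AraC+Dox and HM PBS). By the same test over 9295 genes, 1 member was higher and 4 lower in cycling cells, where 17.8% of all genes tested were higher and 17.9% lower. Mmp8 was at 4.14, 7.02 and 47.8 CPM in cycling cells and 311, 160 and 1246 in non-cycling cells, which do not overlap (log2 fold change -5.28 ± 0.39, edgeR adjusted p = 7.4e-04). Mmp9 was at 159, 106 and 166 CPM against 1009, 577 and 1094 (-2.78 ± 0.14, edgeR adjusted p = 5.1e-15). With 3 libraries, so small a p-value rests in part on dispersion shared across genes. The other members lower in cycling cells were Lcn2 (7740 ± 3980 against 11600 ± 1440 CPM, SD, n = 3; -0.87 ± 0.23, edgeR adjusted p = 0.0239) and Itgb2l (-0.46 ± 0.13, edgeR adjusted p = 0.00664). The Itgb2l call was lost without MA9 f/f PBS (-0.41).

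Chil3 was the member that was higher in cycling cells, at 8507, 5985 and 4740 CPM against 5210, 4604 and 2236 (0.54 ± 0.14, edgeR adjusted p = 0.00313, higher in 3 of 3 libraries). Camp, at 49900 ± 9010 CPM in cycling and 45300 ± 3100 in non-cycling cells, did not pass (-0.05 ± 0.12, edgeR adjusted p = 0.778), nor did Fcnb (0.09 ± 0.14, edgeR adjusted p = 0.657), Ngp (-0.24 ± 0.13, edgeR adjusted p = 0.152) or Orm1 (-0.37 ± 0.20, edgeR adjusted p = 0.208). Without HM PBS, Ngp (-0.37) and Orm1 (-0.58) passed as lower in cycling cells. Ltf was lower in 3 of 3 libraries, at 2042, 1575 and 8122 CPM in cycling cells against 6228, 3579 and 8953. It missed the threshold (-1.16 ± 0.36, edgeR adjusted p = 0.0884) and passed in 7 of 8 alternatives. Mmp8 and Mmp9, the members that rose into late cells, were thus the lowest in cycling cells relative to non-cycling ones. Leaving out MA9 f/f PBS or MA9 f/f AraC+Dox cut the genes called higher from 1658 to 713 or 1050, and those called lower from 1666 to 596 or 968.

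Of the other granule genes 29 were tested here and reached 20 CPM on either side. In cycling cells 22 were lower and 0 higher, where 17.9% of all genes tested were lower and 17.8% higher. Their median log2 fold change was -0.90 against 0.00 over all genes tested, which had no such limit. Fpr1 reached the limit only in non-cycling cells (3.88 against 49.2 CPM), as did Adam8 (16.3 against 95.4). Fpr1 (-3.92), Adam8 (-3.33) and the cell adhesion gene Ceacam10 (-2.56) passed the test, and Retnlg, at 315 against 3900 CPM, did not (edgeR adjusted p = 0.0708). Cycling cells were deeper in each library, with a median of 8285, 9021 and 7955 UMIs against 5030, 6113 and 4425, and the part of depth in these differences was not tested.

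**Figure D4:**
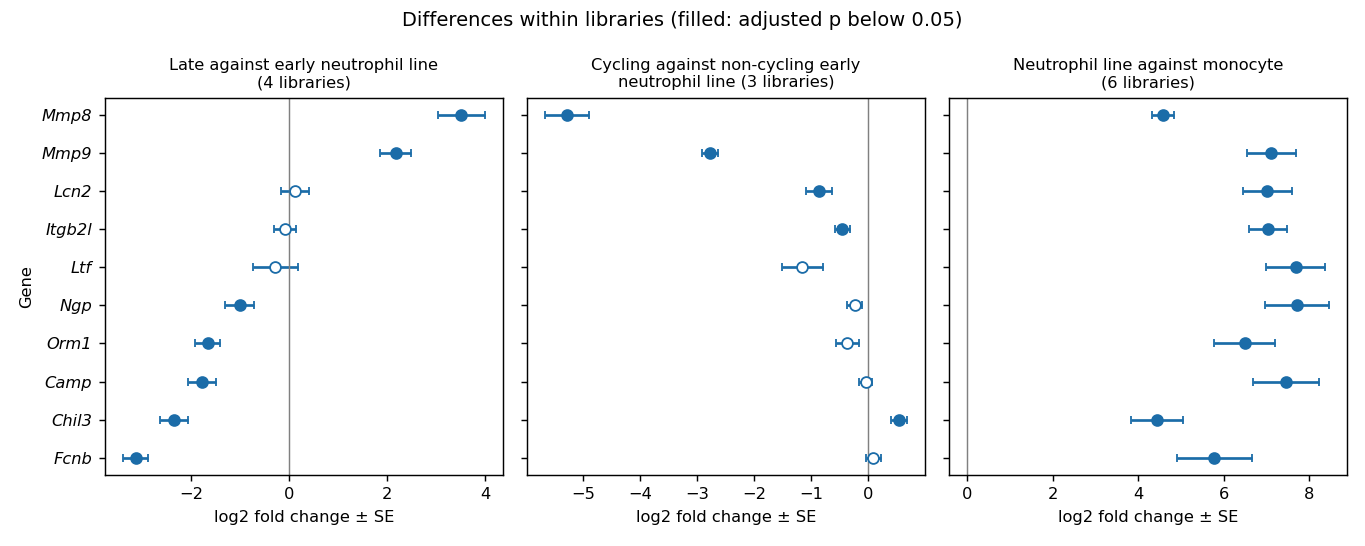
Fitted log2 fold change ± SE of each gene within libraries: late against early neutrophil-line cells (4 libraries), cycling against non-cycling early cells (3 libraries) and neutrophil-line against monocyte cells (6 libraries), with filled points where the adjusted p is below 0.05. Mmp8 and Mmp9 are highest on the late side (3.51 and 2.17) and lowest on the cycling side (-5.28 and -2.78).

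Neutrophil-line cells, early and late together, were compared with monocyte-gated cells (Csf1r, F13a1, Ccr2 and others) in all 6 libraries. All 10 members were higher in neutrophil-line cells by edgeR's test, in 6 of 6 libraries each, where 20.8% of 10550 genes tested were higher and 21.2% lower. The log2 fold changes ran from 4.44 ± 0.60 for Chil3 (2870 ± 2180 against 243 ± 216 CPM, SD, n = 6; edgeR adjusted p = 4.8e-04) and 4.58 ± 0.26 for Mmp8 to 7.68 ± 0.69 for Ltf and 7.72 ± 0.75 for Ngp (17200 ± 6310 against 269 ± 298 CPM, edgeR adjusted p = 8.4e-05). Camp stood at 22600 ± 15000 CPM against 393 ± 375. All 30 other granule genes that reached 20 CPM on either side were higher as well, among them Chil1 (7.15), Olfm4 (6.92) and Retnlg (6.84). Chil1 and Olfm4 reached this limit only in neutrophil-line cells (259 against 5 CPM and 612 against 8.54 CPM). The same held for Lrg1, Ceacam10, Fpr1, Mmp25, Fpr2, Gca, Timp2 and Slc11a1, at 2.07 to 15.1 CPM in monocyte-gated cells. For all of these the limit itself favoured the higher direction. The 10550 genes tested had no such limit, so the sets are unlike. Of the regulators, Klf5 was higher in neutrophil-line cells (78.5 against 4.52 CPM, log2 fold change 4.71 ± 0.42) and Cebpa lower (4.58 against 36.2, -2.33 ± 0.39).

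Granule gene UMIs were also seen in cells gated as lymphoid, called lymphoid cells below. In B, T and NK cells, which do not form neutrophil granules, Camp UMIs were seen in 53.0% of 100 cells in MA9 f/f PBS, 6.57% of 746 in the library with the label MA9 Δ/Δ PBS, 58.0% of 100 in MA9 f/f AraC+Dox, 9.75% of 646 in the one given as MA9 Δ/Δ AraC+Dox, 86.0% of 50 in HM PBS and 98.3% of 1008 in HM AraC+Dox. Median depths of these cells were 2681.5, 1874.5, 2440, 1436, 2716 and 4933.5 UMIs, against 2326 to 6935.5 in neutrophil-line cells. Both libraries labelled MA9 Δ/Δ, the lowest in Camp, also had the lowest shares of Camp-positive lymphoid cells. In monocyte-gated cells Camp was seen in 8.47% to 98.8% of cells. At an equal depth of 1000 UMIs the monocyte share, 2.06% to 64.7%, lay below the lymphoid share in each of the 6 libraries. The same order in all 6 held for Ngp, Ltf and Mmp9. Mmp8 went the other way in each of the 6: at this depth it would be seen in 2.73% of monocyte-gated and 1.44% of lymphoid cells of MA9 f/f PBS, 1.11% and 0.00582% in the library with the label MA9 Δ/Δ PBS, 1.63% and 0.785% in MA9 f/f AraC+Dox, 1.98% and 0.07% in the one given as MA9 Δ/Δ AraC+Dox, 11.3% and 4.31% in HM PBS, and 18.3% and 9.76% in HM AraC+Dox. In MA9 f/f PBS the levels ran against the shares (33.7 and 81.7 CPM), so no order is read there. In the other 5 libraries both were higher in monocyte-gated cells. The counting intervals of the HM PBS levels overlap, at 110 to 144 CPM in monocyte-gated and 55 to 139 in lymphoid cells. Lymphoid cells held 1 Mmp8 UMI in the library with the label MA9 Δ/Δ PBS. They held 2 in both MA9 libraries labelled AraC+Dox. For the other 5 members the order differed between libraries or, for Orm1, both shares were 0 in some. The part of background in monocyte-gated cells was not tested for any member.

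At that depth Camp would be seen in 26.3% of lymphoid and 91.9% of neutrophil-line cells of MA9 f/f PBS, 3.21% and 24.9% in the library with the label MA9 Δ/Δ PBS, 35.8% and 91.7% in MA9 f/f AraC+Dox, 6.12% and 34.8% in the one given as MA9 Δ/Δ AraC+Dox, 50.8% and 71.4% in HM PBS and 72.6% and 87.8% in HM AraC+Dox. Mmp9 separated the cells more widely in HM AraC+Dox, at 8.70% and 73.9%, as did Mmp8 at 9.76% and 80.5%. All 10 members had the lower share in lymphoid cells in 5 libraries, and 9 of 10 did in HM AraC+Dox. The exception was Fcnb, at 3.72% of lymphoid and 3.37% of neutrophil-line cells, with levels of 177 and 90.7 CPM. In HM PBS its levels were 207 and 196 CPM. By level, Fcnb in the pooled neutrophil-line cells of the HM libraries, which are mostly late cells, thus did not stand above all lymphoid cells. This depended on lymphoid cells that carried 3 or more early neutrophil markers. Without them, lymphoid Fcnb stood at 0 CPM in HM PBS, where 47 of 50 cells were left. It stood at 17.4 CPM in HM AraC+Dox, where 884 of 1008 cells were left. In that library the 3 cells with the most Fcnb held 29.6% of its lymphoid UMIs. In the early gates of these libraries Fcnb stood at 725 and 759 CPM. The part of background in these levels was not tested.

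Orm1 had no UMI in lymphoid cells of MA9 f/f PBS and of both libraries labelled MA9 Δ/Δ, where 3 UMIs would have given 7.91, 1.29 and 1.79 CPM. A few cells carried much of the lymphoid signal: the 3 cells with the most UMIs of each gene held 71.1% of the lymphoid Camp UMIs in MA9 f/f PBS and 93.2% in HM PBS, but 15.1% in HM AraC+Dox. Without lymphoid cells that carried 3 or more early neutrophil markers, an alternative chosen after seeing the data, the members' share of lymphoid UMIs went from 0.274% to 0.0595% in MA9 f/f PBS, from 1.04% to 0.086% in MA9 f/f AraC+Dox and from 1.30% to 0.309% in HM AraC+Dox. The share of cells with a Camp UMI moved little, to 50%, 53.8% and 98.1%. The part of free RNA and of mixed droplets in this signal was not tested.

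**Figure D5:**
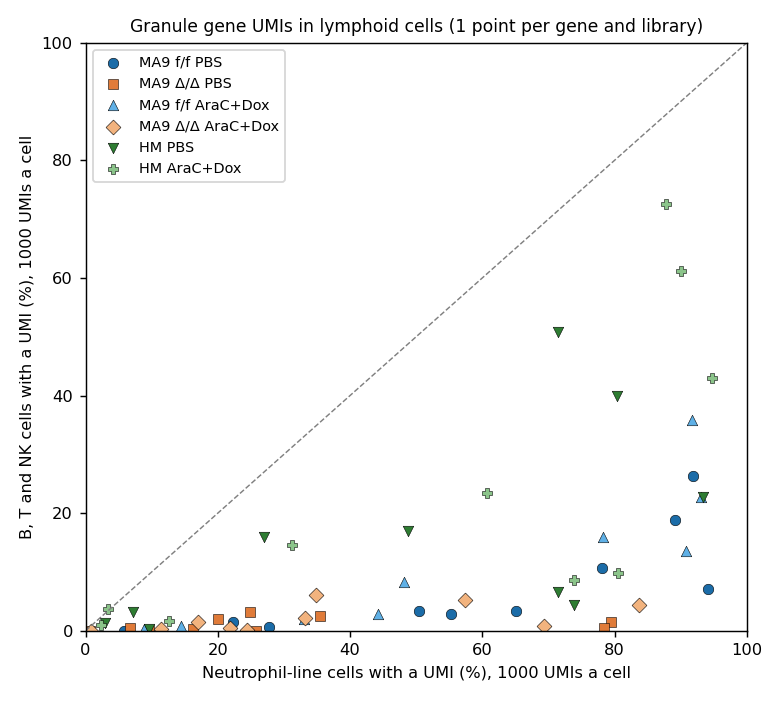
Expected share of lymphoid cells with a UMI of each gene against the same share of neutrophil-line cells, both in percent at 1000 UMIs per cell, 1 point per gene and library, with the dashed line of equality. The highest point is Camp in HM AraC+Dox (72.6%), and 1 point (Fcnb, 3.37% and 3.72%) lies just above the line.

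Between the libraries labelled MA9 Δ/Δ PBS and MA9 f/f PBS all 10 members were lower by 2-fold or more in the former, where 3.88% of 6138 genes at 20 CPM or more were lower by that rule of size and 3.83% higher. The median log2 ratio of the members was -3.02 against 0.16 for all genes. The ratio was largest for Orm1 (log2 -3.96, interval -4.25 to -3.69), Camp (-3.83, -3.84 to -3.82), Ltf (-3.76) and Ngp (-3.61), and smallest for Mmp9 (-1.87) and Mmp8 (-2.46). Under AraC+Dox the library with the label MA9 Δ/Δ was again lower than that labelled MA9 f/f by 2-fold or more for 10 of 10 members, against 4.71% of 6057 genes lower and 5.45% higher, from -4.56 for Orm1 and -4.37 for Camp to -1.75 for Lcn2 and -1.66 for Fcnb. These pairs share no library. In both, Orm1, Mmp8 and Itgb2l reached 20 CPM only in the library labelled MA9 f/f. In those labelled MA9 Δ/Δ they stood at 1.33, 18.0 and 14.5 CPM under PBS and 1.35, 11.8 and 15.2 CPM under AraC+Dox. For these genes the limit itself favoured the lower direction. Median-of-ratios scaling shifts every ratio by -0.17 in the PBS pair and -0.11 in the AraC+Dox pair.

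Both the number of early neutrophil-line cells and the level within gates differed. In the primary granule gate, where the pairs held 3291 to 5585 cells, Camp was at 1050 CPM in the library with the label MA9 Δ/Δ PBS and 9920 in MA9 f/f PBS (9.45-fold), and at 881 against 15354 CPM under AraC+Dox. Ngp was at 623 against 4833 CPM and at 1153 against 5202, and Fcnb at 164 against 1067 and 285 against 861. In the early gate the Camp ratio was smaller. It stood at 20914 against 42708 CPM under PBS and 16684 against 46054 under AraC+Dox, the latter from 41 cells of the library with the label MA9 Δ/Δ. There Lcn2 and Mmp9 were not lower: Lcn2 stood at 11555 against 9042 CPM and 8849 against 7205, and Mmp9 at 1083 against 592 and 539 against 290. In the late gate Camp stood at 2706 against 13066 and 3034 against 15881 CPM, while Mmp9 stood at 2295 against 2531 and 2312 against 2115.

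Primary granule genes did not share this course. Of the 11 measured, 1 was higher and 1 lower by 2-fold or more between the PBS libraries, and 3 were higher and 0 lower under AraC+Dox, where Mpo stood at 4340 CPM in the library with the label MA9 Δ/Δ and 1444 in the one given as MA9 f/f. Among other granule genes 20 of 26 and 15 of 25 were lower and none higher, led by Lyz2 (427 against 2549 CPM under PBS), Cd177 (66.6 against 360) and Retnlg (59.3 against 319). The regulators Cebpe (143 against 457 CPM under PBS and 156 against 468 under AraC+Dox), Klf5 and Cebpd were lower by 2-fold or more in both pairs. Cebpe is also a marker of the early gate, whose cells were fewer in the libraries labelled MA9 Δ/Δ.

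Between the libraries labelled AraC+Dox and PBS the changes were smaller. In MA9 f/f, 3 of 10 members were lower by 2-fold or more (0.919% of 5767 genes, with 0.381% higher): Mmp9 (log2 -1.30, interval -1.35 to -1.26), Mmp8 (-1.19) and Ltf (-1.08). Camp was at 0.17, Chil3 at -0.12 and Orm1 at 0.61. Mmp9 and Mmp8 were also lower in cycling than in non-cycling early cells, as were Lcn2 and Itgb2l (-0.46 and -0.47 here), and cycling cells made up 49.4% of the early gate in MA9 f/f AraC+Dox against 36.6% in MA9 f/f PBS. Among non-cycling early cells alone Mmp8 was at 160 CPM against 311, Mmp9 at 577 against 1009 and Ltf at 3579 against 6228. Late neutrophils, where Mmp8 and Mmp9 are highest, were 2.42% of cells against 5.88%. The parts of cycling cells and of late neutrophils in these ratios were not tested. Within the whole early gate Mmp8 stood at 66.6 against 161 CPM and Mmp9 at 290 against 592, while in the late gate Mmp8 stood at 1916 against 1858. In MA9 Δ/Δ, 1 of the 7 members at 20 CPM or more was lower by 2-fold or more (1.53% of 6011 genes, with 0.749% higher), which was Mmp9 (-1.29). Fcnb was at 0.86 and Ngp at 0.58, and Orm1, Itgb2l and Mmp8 were below 20 CPM in both libraries.

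In HM, 1 of 10 members was lower by 2-fold or more under AraC+Dox (10.6% of 5099 genes, with 12.8% higher), which was Camp (log2 -1.05, interval -1.06 to -1.04), and the other 9 lay between -0.69 and -0.20. The direction depended on the cell filter, whose mitochondrial limit removed most HM PBS barcodes: with no cell filter, 6 of the 10 were higher under AraC+Dox, such as Ngp at 0.28 and Lcn2 at 0.29, and none was lower by 2-fold. Median-of-ratios scaling shifts these ratios by -0.15. T-gated cells made up 18.0% of kept cells in HM AraC+Dox and 1.43% in HM PBS. That gate held the T cell marker Cd3e at 148 CPM in HM AraC+Dox against 287 in HM PBS, and Elane at 849 against 164. The part of mixed droplets in it was not tested. Within late neutrophils, the class with 1708 and 2144 cells, the order varied with the gene: Camp stood at 12571 CPM under AraC+Dox and 13915 under PBS, Mmp9 at 1610 and 1602, and Ngp, higher under AraC+Dox, at 16297 and 10671.

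Between the models under PBS, 5 members were higher by 2-fold or more in HM than in the library with the label MA9 f/f (9.04% of 5983 genes) and 1 was lower (30.4%). The median of all genes was -0.62, and values relative to that shift, by median-of-ratios scaling, are given second. Mmp8 was at 3.63 and 4.25, Mmp9 at 2.06 and 2.68, Orm1 at 1.71 and 2.33, Ltf at 1.65 and 2.27 and Lcn2 at 1.19 and 1.81. Ngp, at 0.40 and 1.02, passed 2-fold after rescaling, which made the higher members 6, and Camp was at 0.34 and 0.95. Fcnb was lower at -1.65 and -1.04, Chil3 was at -0.86 and -0.24, and Itgb2l changed sign, at -0.40 and 0.22. Mmp8 and Mmp9, with the largest ratios, are highest in late neutrophils, which were 62.7% of HM PBS and 5.88% of MA9 f/f PBS cells, while Orm1 and Ltf are highest in the early gate of both libraries (202 against 34.7 CPM and 8435 against 3102 CPM in HM PBS). The part of cell makeup in these ratios was not tested. Within the late gate Mmp8 stood at 2120 against 1858 CPM and Mmp9 at 1602 against 2531. Without the cell filter Camp and Ngp changed sign, to -0.33 and -0.23. The feature sets and barcode lengths of the MA9 and HM matrices differ, and processing cannot be told apart from the model.

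The 10 members followed each other across the 52 library-by-gate sums. Each member's Pearson correlation with the mean of the others, on log2(CPM + 1), lay between 0.756 (Mmp8) and 0.974 (Lcn2). Of all pairs Camp and Ngp were the most alike (0.980) and Mmp8 and Fcnb the least (0.372). Of 10504 genes, those closest to the members' mean were S100a9 (0.980) and S100a8 (0.978), the subunits of calprotectin, then Mapk13 (0.961), Adpgk (0.951), Wfdc21 (0.938), the surface antigen Cd177 (0.931), Rflnb (0.916), Chil1 (0.914), the peptidoglycan-binding Pglyrp1 (0.905) and Ceacam10 (0.901). Adpgk is itself a marker of the early gate. The sums come from 6 libraries and share their stray RNA and depth, so these values describe likeness only.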

How the data were processed

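The 6 libraries were mouse bone marrow by a Chromium single-cell kit, 1 per group, grouped by the labels. The matrices deposited by the authors hold raw counts, 1 per UMI, for each gene in each barcode. Per the submitters' processing notes they came from Cell Ranger 3.0.2 on mm10; filters are not given in the sources used here. The HM matrices name no software.

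Barcodes needed at least 500 detected genes and no more than 10% mitochondrial UMIs, and doublets were removed with Scrublet (scanpy 1.11.5). Where its own threshold called under 0.5% of cells (both libraries labelled MA9 Δ/Δ and both HM libraries) the mean threshold of the others, 0.195, was used, a choice made after seeing the data. The doublets removed numbered 370, 300, 546, 380, 29 and 78 in the order MA9 f/f PBS, MA9 Δ/Δ PBS, MA9 f/f AraC+Dox, MA9 Δ/Δ AraC+Dox, HM PBS and HM AraC+Dox. A cell went to the gate with most detected markers, at least 3, lymphoid, erythroid, macrophage, mast cell and stromal lists first. Ties stayed apart. This scoring rule was settled after seeing the data. Cycling cells had at least 3 of 8 cycle genes.

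Levels are UMIs per 1000000 UMIs (CPM) with exact Poisson intervals, and shares of cells were read beside those at 1000 UMIs per cell, shallower cells left out. Ratios between libraries carry exact conditional intervals, for genes that reach 20 CPM in at least 1 library of the pair, with 2-fold as a rule of size. A count of 0 takes a floor of 3 UMIs. Tests within libraries used edgeR 4.0.16 (TMM, filterByExpr, library as a block), tested on simulated data, with DESeq2 1.42.0 as an alternative. Libraries, not cells, were the replicates. The labels do not say how many animals each holds. The block removes differences in level between libraries. The p-values therefore rest on how the differences within libraries vary between these libraries, with dispersion shared across genes by edgeR. With few libraries, a very small p-value does not measure a gene's own spread alone.

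The members and lists were chosen with earlier results of these data known. Named genes are the members, Ptpn6, up to 4 genes per list and comparison by size at 20 CPM or more, and the 10 closest in profile. Promoter sequences are RefSeq's and positions GENCODE vM21's.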

Additional observations from a re-analysis of the deposited data

Results flagged for a closer look

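Members that moved in opposite directions under AraC+Dox against PBS in different backgrounds are given as log2 ratios. Between the library pairs labelled MA9 f/f and MA9 Δ/Δ these were Lcn2 (-0.46 and 0.37) and Fcnb (-0.45 and 0.86). Between MA9 f/f and HM this was Orm1 (0.61 and -0.41). Between the pair labelled MA9 Δ/Δ and HM these were Ngp (0.58 and -0.33), Lcn2 (0.37 and -0.39) and Fcnb (0.86 and -0.65). With 1 library per group the difference was not tested in any of these, and the Lcn2, Ngp and Orm1 directions in HM turned when no cell filter was applied.

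The HM PBS barcodes left out for over 10% mitochondrial UMIs, 9316 in number with a median of 1158.5 UMIs, still held the members at 1.10% of their UMIs, against 4.78% in the kept cells. Camp stood at 4438 CPM in them and Ngp at 3119 CPM.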

How the results depend on the processing

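In all, 758 alternative values were computed for 138 results. Of these 558 were classed as the same and 19 changed sign. For fold changes within libraries the same means an unchanged direction and side of the threshold. For counts of genes called within libraries it means a limited change in size, whatever the error. Classed as moved were 41 values of main results and 125 of the others. The summed level of the members was 3.44%, 0.322%, 3.29% and 4.80% of UMIs with doublets kept (MA9 f/f PBS, the library with the label MA9 Δ/Δ PBS, MA9 f/f AraC+Dox and HM PBS). It was 3.41%, 3.03% and 2.99% with no cell filter (MA9 f/f PBS, HM PBS and HM AraC+Dox), and 3.44%, 0.317%, 3.88% and 3.02% at a limit of 20% mitochondrial UMIs (MA9 f/f PBS, the library with the label MA9 Δ/Δ PBS, HM PBS and HM AraC+Dox). With no cell filter, AraC+Dox against PBS in HM became 0.28 for Ngp, 0.29 for Lcn2, 0.17 for Mmp8, 0.23 for Chil3, 0.13 for Orm1 and 0.25 for Itgb2l, with 0 members lower by 2-fold. HM PBS against MA9 f/f PBS became -0.33 for Camp and -0.23 for Ngp, with 2 members lower. Median-of-ratios scaling turned Itgb2l there to 0.22. With doublets kept or no cell filter, 2 members rather than 1 were lower under AraC+Dox in the pair labelled MA9 Δ/Δ. The members' share of lymphoid UMIs, in the library order of the report, was 0.836%, 0.0673%, 1.25% and 1.35% with doublets kept (MA9 f/f PBS, MA9 Δ/Δ PBS, MA9 f/f AraC+Dox, HM AraC+Dox), 0.830%, 0.0668%, 1.25%, 1.23% and 1.35% with no cell filter (the same with HM PBS before the last), 0.235%, 0.896%, 1.37% and 0.920% with at least 4 markers (MA9 f/f PBS, MA9 f/f AraC+Dox, HM PBS, HM AraC+Dox), and 0.0595%, 0.0097%, 0.086%, 0.0271%, 0.177% and 0.309% in the 6 libraries without lymphoid cells of 3 or more early neutrophil markers.

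Leaving out each library in turn, members called lower in late cells ranged from 4 to 6 and those called higher stayed at 2. All 10 stayed higher than in monocytes. In late against early cells Ltf turned to 0.13 without HM PBS and 0.17 without the library with the label MA9 Δ/Δ PBS (lowest -0.86), Itgb2l to 0.04 and 0.25, and Lcn2 to -0.24 without MA9 f/f AraC+Dox (highest 0.40). In cycling cells, members called lower ranged from 4 to 7 (7 without HM PBS), all genes called higher from 713 to 1980 and all called lower from 596 to 1903, and DESeq2 called 862 and 889 in place of 1658 and 1666. Camp, near 0 there, turned to 0.03 with libraries of at least 20 cells a side (added after seeing the data), to 0.01 without MA9 f/f AraC+Dox and to 0.00 without MA9 f/f PBS (lowest -0.15). Fcnb turned to -0.01 with at least 4 markers and to -0.05 without HM PBS (highest 0.18). The cause was not tested in any of these. The tests within libraries hold the library as a block, and a paired fit of AraC+Dox against PBS over the 3 backgrounds was not run. Lymphoid values rest on 50 to 1008 cells, and Orm1 on few UMIs.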
